A study of Homo sapiens with 11 samples.

Results

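Bidirectional promoters are stretches of DNA that lie between the start sites of 2 genes transcribed away from each other, so that a single short gap serves as the upstream sequence of both. Pairs were taken here where 2 protein-coding genes on opposite strands of chromosomes 1 to 22 and X had their 5′-most annotated transcription start sites (TSSs) pointing apart and at most 1000 bp from each other, in the GENCODE annotation on GRCh37 (hg19). The rule gave 883 pairs with 1703 genes, which were 8.47% of 20098 protein-coding genes. Some pairs shared a gene or a gap, and merging overlapping gaps left 821 promoters. In 79 pairs at least 1 gene was annotated as a readthrough transcript of neighbouring genes, and 62 genes stood in more than 1 pair. The region scored for each pair was the gap plus 1 kb on each side, inside the bodies of the genes.

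The measurements came from HK2, an immortalised human cell line derived from the proximal tubule of the kidney and grown under 1 condition, in DMEM-F12 medium with fetal bovine serum, antibiotics and a low level of DMSO. ChIP-seq had been done in 2 replicates for each of H3K4me3, a mark of promoters, H3K27ac, a mark of active promoters and enhancers, and H3K27me3, the mark laid down by Polycomb repressive complexes. RNA-seq had been done on 2 libraries, and expression was read as FPKM (fragments per kilobase of transcript scaled to the depth of the library) summed over the transcripts of a gene. The labels did not say whether replicates were separate cultures, no treated group existed, and every comparison below is between classes of promoters within the same samples, given as a description without a test.

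Many mammalian housekeeping genes share a divergent promoter of this kind, and such promoters are known to be rich in CpG dinucleotides and poor in TATA boxes. Transcription from most active promoters starts in both directions, but in the usual case the upstream product is a short unstable RNA, whereas at a bidirectional promoter both products are mRNAs. H3K4me3 and H3K27ac sit on the nucleosomes beside the nucleosome-depleted region where polymerase loads, while CpG-rich promoters that are silent are common targets of H3K27me3.

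The gaps were short. The distance between the start sites had a median of 131 bp, quartiles of 69 and 247 bp, and a range of 1 to 995 bp. It was at most 200 bp in 596 pairs (67.5%) and at most 500 bp in 807. Chromosomes 1 and 19 held 77 and 74 pairs, and chromosome X held 24, so that 5.41% of the coding genes of X were members.

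The sequences of 7 gaps are shown because the results below turn on these pairs, which range from pairs with both genes expressed to pairs with 1 gene expressed and to a pair with both genes near 0. Each is the GRCh37 plus strand between the 5′-most TSSs, outside the annotated transcripts of both genes, with the minus-strand gene named first and lying to the left. Capitals mark matches on either strand to short motifs. In these gaps the matches are to CCAAT, the box bound by the factor NFY, to GGGCGG, the GC box bound by SP1 and its relatives, to CCGGAAG, a site of ETS factors such as GABPA, and to TGACGTC, the cyclic AMP response element (CRE). The other 4 motifs searched, which are spelled out with their shares further on, have no match in these windows. The first 4 pairs have both genes expressed, BTK/RPL36A and OSTM1/NR2E1 have 1 gene expressed, and the last 2 pairs carry H3K27me3.
PPAT/PAICS (chr4:57301782-57301906): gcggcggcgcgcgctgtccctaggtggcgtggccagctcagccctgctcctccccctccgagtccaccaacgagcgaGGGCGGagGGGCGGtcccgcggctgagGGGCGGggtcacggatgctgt
SARS2/MRPS12 (chr19:39421404-39421583): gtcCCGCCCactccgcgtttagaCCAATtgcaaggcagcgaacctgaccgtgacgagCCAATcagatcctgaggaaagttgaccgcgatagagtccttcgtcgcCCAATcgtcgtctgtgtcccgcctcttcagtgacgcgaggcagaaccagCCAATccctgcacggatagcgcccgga
TCP1/MRPL18 (chr6:160210736-160210843): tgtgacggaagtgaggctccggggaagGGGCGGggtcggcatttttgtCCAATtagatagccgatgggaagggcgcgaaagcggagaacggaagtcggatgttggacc
LRRC41/UQCRH (chr1:46769289-46769369): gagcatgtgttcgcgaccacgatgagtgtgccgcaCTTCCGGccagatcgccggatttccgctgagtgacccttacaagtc
BTK/RPL36A (chrX:100645785-100645811): acgttgaaagctgcgGGGCGGgaggaa
COL4A4/COL4A3 (chr2:228029170-228029339): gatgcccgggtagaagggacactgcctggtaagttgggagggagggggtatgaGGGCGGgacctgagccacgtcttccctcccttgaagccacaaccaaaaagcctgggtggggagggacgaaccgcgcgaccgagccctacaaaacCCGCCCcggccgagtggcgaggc
OSTM1/NR2E1 (chr6:108487059-108487225): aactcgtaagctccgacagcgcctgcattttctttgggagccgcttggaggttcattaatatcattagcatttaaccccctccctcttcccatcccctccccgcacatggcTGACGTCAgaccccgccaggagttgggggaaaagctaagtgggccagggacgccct

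The SARS2/MRPS12 gap held 4 copies of CCAAT in 180 bases, and the LRRC41/UQCRH gap held 1 ETS match. GC content of these gaps ranged from 56.9% in OSTM1/NR2E1 to 76.0% in PPAT/PAICS, against a median of 66.2% over the 847 gaps of at least 20 bases. CCAAT was present in 34.2% of the 883 gaps, GGGCGG in 58.3%, CCGGAAG in 16.1% and TATAAA in 4.30%, although longer gaps have more room for a match.

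To compare sequence at equal length, windows of 300 bases were read for every coding gene, from 250 bases upstream of the 5′-most TSS onward. Windows of the 2 genes of a pair overlap where the gap is short, so they are not independent. The third quartile of the distance was 247 bp, so most member windows also take in the start site of the partner. Motifs that lie near a start can match at either start in such windows. Median GC content was 64.7% for member genes and 59.7% for the other 18395 coding genes, and the median ratio of observed to expected CpG was 0.879 and 0.662. A CpG ratio of at least 0.6, a usual mark of CpG islands, was reached by 91.4% of members and 54.9% of other genes. Genes with an lncRNA starting on the opposite strand within 1 kb upstream were close to the members, at 89.0% and a median GC content of 67%, and genes whose 5′ end overlapped that of an opposite coding gene stood at 74.3% and 62.7%. The difference between members and all other genes was smaller among promoters with H3K4me3 and H3K27ac peaks in both replicates, with shares of 94.9% and 83.1%.

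Among these active promoters, the ETS letters CCGGAAG occurred in 29.3% of member windows (95% Wilson interval 27.02 to 31.78%) and 18.3% of other windows (17.42 to 19.12%). Over all coding genes their share was 11.8%. The core of the NRF1 site, GCATGCG, occurred in 10.7% and 6.37% of active windows, against 4.59% over all genes. The letters of YY1, AAGATGG, occurred in 9.54% and 6.73%, against 5.64% over all genes. These 3 motifs belong to factors known from housekeeping promoters. Ratios were nearer to 1 for CCAAT (40.8% and 36.3% of active windows, 35.8% of all), for GGGCGG (73.4% and 68.3%, 52.2% of all) and for the CRE (7.12% and 5.74%, 4.06% of all). The E-box, CACGTG, occurred in 10.5% and 10.3% (8.33% of all windows). The TATA box, TATAAA, occurred in 4.84% and 6.01% (10.9% of all windows). Intervals of members and other active promoters did not overlap for the ETS, NRF1, YY1, CCAAT and GGGCGG letters. These intervals are too narrow where windows of a pair share bases. Whatever their marks, windows with an upstream lncRNA were close to members for GGGCGG (73.3% and 72.2%) and TATAAA (4.57% and 4.99%). For the CRE they stood at 7.57% and 6.58%, for CCAAT at 37.5% and 40.3%, and for the E-box at 8.42% and 10.3%. Intervals overlapped for each of these. The lncRNA class was lower for the ETS (18.8% and 27.5%), NRF1 (6.42% and 9.57%) and YY1 (5.07% and 8.81%) letters. A match is a description of letters, and binding was not measured.

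Nearly all bidirectional promoters carried H3K4me3. A peak overlapped the region in 95.5% of pairs in replicate 1 and 96.6% in replicate 2, against 62.7% and 67.6% of the other coding promoters, scored within 1 kb of their TSS. H3K27ac overlapped 93.1% and 82.9% of the regions, against 57.7% and 45.1%. H3K27me3 overlapped 2.60% and 2.94%, against 12.1% and 11.0%. The order of the classes was the same in each of the 6 peak lists, although the lists differed in size, from 29130 to 73942 peaks.

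A peak in both replicates was required next. H3K4me3 was then found at 842 of 883 regions (95.4%), beside 63.3% of all coding promoters. H3K27ac was found at 732 (82.9%), beside 48.2% of all coding promoters, and all 732 also had H3K4me3, the pair of marks of an active promoter, beside 46.5%. H3K27me3 was found at 21 regions (2.38%, Wilson interval 1.56 to 3.61%), beside 8.93%. H3K4me3 and H3K27me3 together, the bivalent combination, were found at 15 (1.70%), beside 5.08%. No peak of any list touched 23 regions (2.60%), beside 22.1%. These intervals cover counting error only, and because regions with a gap are up to 995 bp longer than the window of other genes, members were also scored at their own TSS, where 82.4% of 1703 had both active marks and 2.41% had H3K27me3.

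Other promoters with a divergent partner lay nearer to the members than those without. In 975 genes an opposite coding gene started within 1 kb downstream of the TSS, so that the 5′ ends overlapped, and 81.8% had both active marks. In 1401 genes a long noncoding RNA (lncRNA) started on the opposite strand within 1 kb upstream, and the share was 70.6%. In the remaining 16019 genes it was 38.4%. The members' share of 82.9% had an interval of 80.3 to 85.2%, which overlapped that of the overlapping pairs (79.3 to 84.1%) and not that of the lncRNA class (68.2 to 72.9%).

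**Figure D1:**
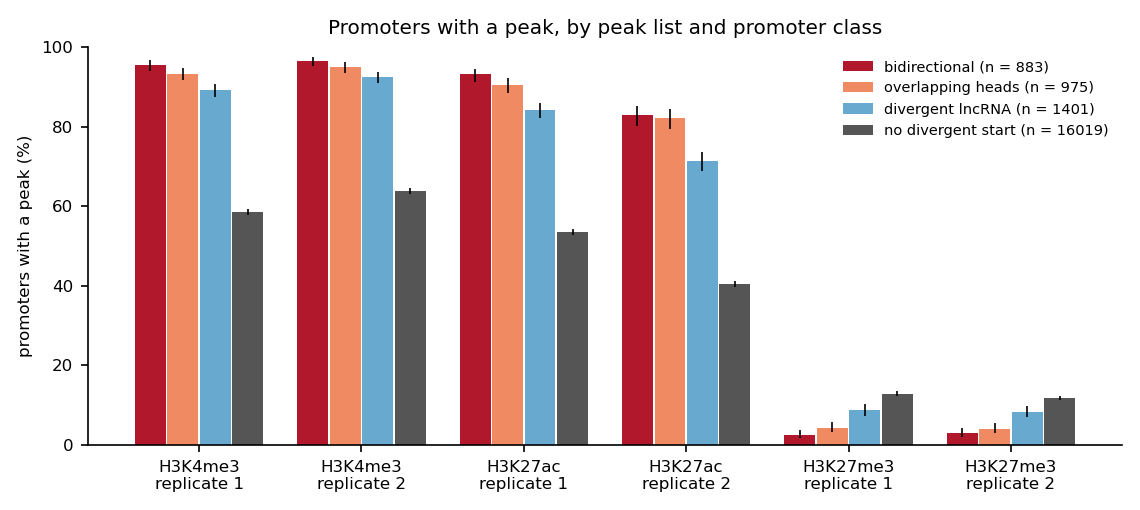
Share of promoters (%) with a peak in each of the 6 peak lists, for 883 bidirectional regions and 3 classes of other coding promoters; bars show shares and lines the 95% Wilson interval. Bidirectional regions have the highest share of H3K4me3 and H3K27ac and the lowest of H3K27me3 in each list, next to the overlapping pairs.

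The peaks lay over both genes. Both start sites were inside a single H3K4me3 peak in 90.0% of regions in replicate 1 and 79.5% in replicate 2, and in 78.3% in both. For H3K27ac the shares were 86.3% and 31.9%. The replicates of H3K27ac therefore differed in shape: in replicate 2, whose peaks at these promoters had a median width of 734 bp against 2202 bp in replicate 1, 125 regions (14.2%) had a peak on each flank and none in the gap, which was seen at 1 region in replicate 1. The study's supplement gives a much lower fraction of reads inside peaks for H3K27ac replicate 2 than for replicate 1, and its part in these shapes was not tested. H3K4me3 peaks that met the regions had median widths of 2702 and 1508 bp, against 2168 and 1287 bp at other promoters. For H3K4me3 in replicate 2 the share of regions with both starts in 1 peak was 90.3% at up to 50 bp, 93.5% over 50 and up to 100 bp, 84.6% up to 200 bp, 67.05% up to 400 bp and 48.6% beyond. A longer gap takes a wider peak to span, so a lower share at long distances is partly built into this measure.

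Coverage around the TSS, oriented by strand, showed where members differed from ordinary promoters. The 1621 members and 8950 genes without a divergent start that had H3K4me3 in both replicates were compared. At 1000 bp upstream, H3K4me3 peaks covered 84.8% of members in replicate 1 and 44.0% in replicate 2, against 24.0% and 10.6% of genes without a divergent start. Promoters with an upstream lncRNA lay between, at 56.9% and 21.3%. At 1000 bp downstream the members were lower, with 75.7% and 27.5% in replicates 1 and 2 against 80.5% and 50.7%. The upstream side is the body of the partner gene, and since both genes of a pair enter the profile, its near symmetry about the gap is built in. In H3K27ac replicate 2, coverage of members was 63.1% at 500 bp upstream, 42.4% at the TSS and 52.9% at 500 bp downstream, a dip that replicate 1 (92.8%, 93.8% and 88.9%) did not have. At the same positions in replicate 2, promoters with an upstream lncRNA also dipped (46.6%, 43.0% and 59.7%). Genes without a divergent start rose (26.7%, 34.8% and 49.8%), as did genes whose 5′ end overlapped that of an opposite coding gene (42.1%, 54.8% and 61.9%).

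**Figure D2:**
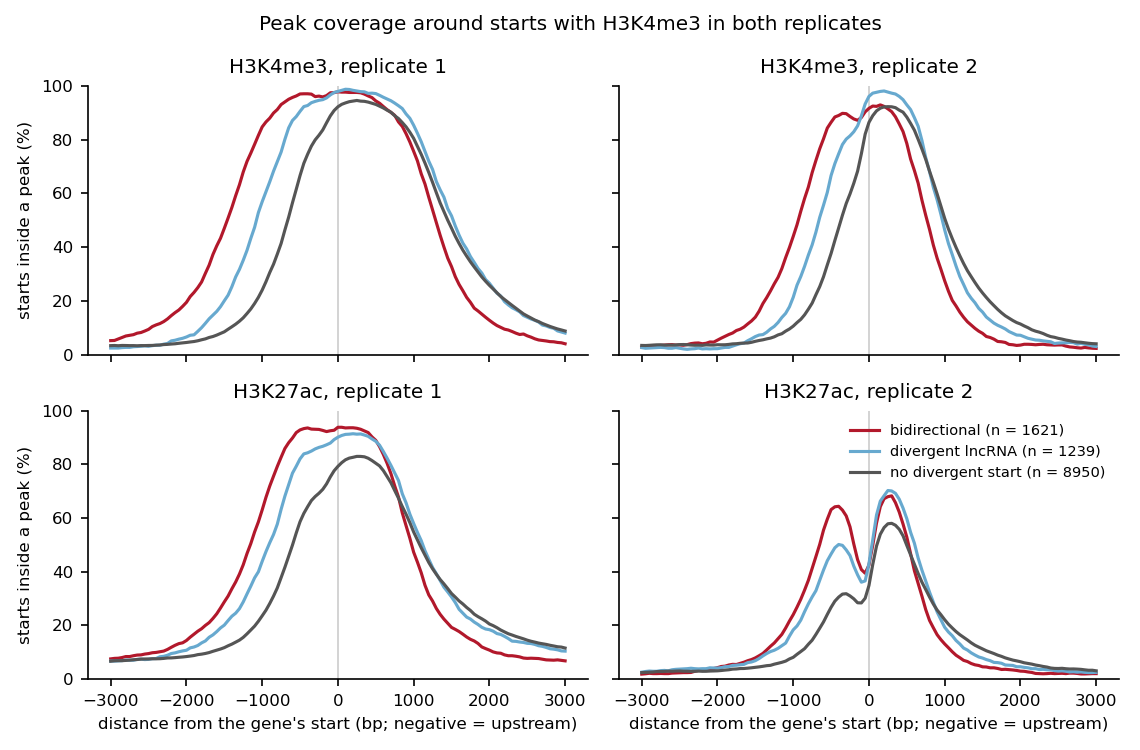
Share of promoters (%) inside a peak at each distance from the TSS (bp, negative upstream), for H3K4me3 and H3K27ac in each replicate; lines are member genes (n = 1621), genes with a divergent lncRNA (n = 1239) and genes without a divergent start (n = 8950), all with H3K4me3 in both replicates. Members extend farther upstream than the other classes in each panel. In H3K27ac replicate 2, members and genes with a divergent lncRNA are lower at the TSS than 500 bp to either side, unlike genes without a divergent start.

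Both genes of 845 pairs could be matched to the RNA-seq, and 38 pairs had a gene that was not matched. A gene counted as expressed when each library gave it 1 FPKM or more. Of 1666 member genes with a value, 1338 were expressed (80.3%, interval 78.3 to 82.2%), beside 58.9% of all coding genes measured, and 56.9% of the other genes. The classes with a divergent partner were similar, at 84.2% for overlapping 5′ ends (interval 81.7 to 86.4%) and 78.9% for an upstream lncRNA (76.7 to 81.0%). Median FPKM was 8.35 and 8.61 in libraries 1 and 2 for members, and 2.76 and 2.88 for other genes. The difference lay in the share of genes that were on. Among expressed genes alone the median of mean FPKM was 11.5 for members and 11.1 for others, 2.70% and 2.49% of all measured reached 100 FPKM, and 4.80% of members were listed at 0 in both libraries against 20.8% of others.

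In 574 of the 845 pairs both genes were expressed (67.9%, interval 64.7 to 71.0%), beside 41.1% of all consecutive coding neighbours. Readthrough genes were left out of every set of neighbours, and without them the share was 70.8% of 794 bidirectional pairs. The product of the shares of genes expressed on each side, which is what independent genes would give, was 64.0% for bidirectional pairs and 36.0% for all neighbours, so most of the gap between them was already in the single genes. In 204 pairs (24.1%) 1 gene was expressed, and in 67 (7.93%) neither was. Neighbours in other arrangements had both genes expressed in 38.8% of 6402 same-strand pairs within 100 kb, where the product was 31.4%, in 41.6% of 2403 convergent pairs and 39.7% of 557 divergent pairs at 1 to 10 kb. The 476 neighbours with overlapping 5′ ends reached 74.8%. Beside the cutoff on distance, 20 of 30 pairs over 800 and up to 1000 bp (66.7%) and 7 of 13 measured pairs over 1000 and up to 1200 bp (53.8%) had both genes expressed, with active marks at 86.7% and 73.3% of 30 and 15 regions.

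**Figure D3:**
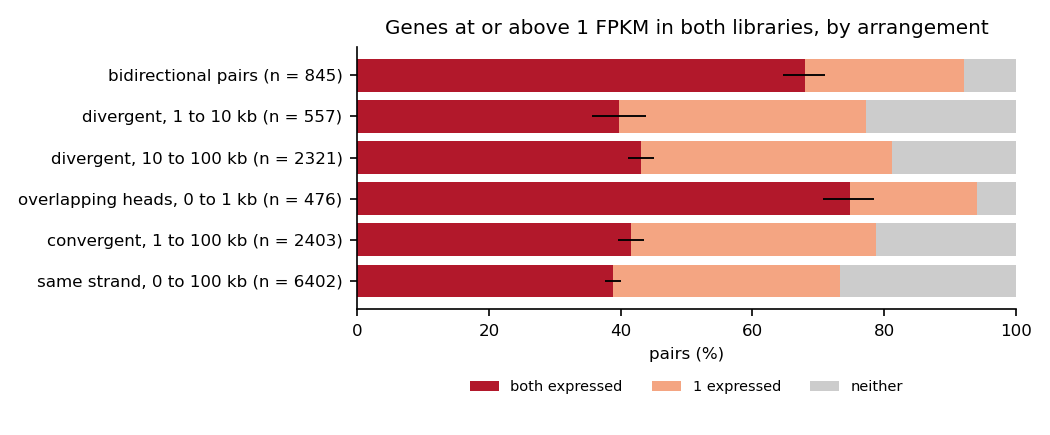
Share of pairs (%) with both genes, 1 gene or neither at 1 FPKM or more in both libraries, by arrangement of the pair; black lines are 95% Wilson intervals for the share with both. Bidirectional pairs (67.9%) and overlapping pairs (74.8%) stand above the other arrangements, which range from 38.8% to 43.0%.

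Being on together did not bring equal levels. Across the 845 pairs, the Spearman correlation between the FPKM of the minus-strand and the plus-strand gene was 0.229 (0.233 and 0.224 in the single libraries), and it lay within the range of the other arrangements. These were 0.392 for same-strand, 0.323 for convergent and 0.296 and 0.230 for divergent neighbours at 1 to 10 and 10 to 100 kb, and 0.186 for overlapping 5′ ends. The points of each correlation share the same libraries. Within pairs that had both genes expressed it was 0.116, between the 0.0520 of divergent neighbours at 1 to 10 kb and the 0.181 of same-strand neighbours. After genes with a mean FPKM under 0.1 were left out, the coefficients of bidirectional and same-strand pairs were 0.134 and 0.135. The median difference between the genes of a bidirectional pair was 1.43 on the log2 scale of FPKM + 1, against 1.32 for same-strand neighbours and 1.69 for divergent neighbours at 1 to 10 kb, and 47 of the 574 pairs with both genes expressed (8.19%) differed by more than 10-fold on that scale, against 9.61% to 13.6% of such pairs in the other arrangements. The order of the genes was reproducible: it turned between libraries in 39 pairs (4.62%).

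**Figure D4:**
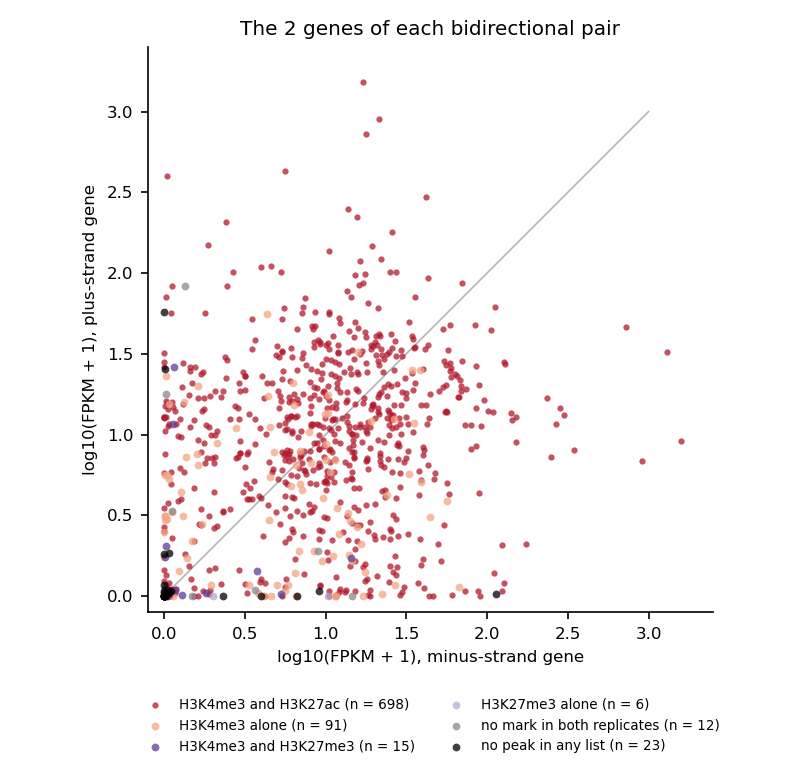
Expression of the minus-strand gene against the plus-strand gene of each measured pair, as log10(mean FPKM + 1) of 2 libraries, coloured by the marks found in both replicates; the grey line is equality. Pairs with both active marks fill the field above 0.5 on both axes and also lie along the axes, where 1 gene is near 0, while pairs with H3K27me3 lie near the origin or along an axis.

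Levels differed with the marks. Of 698 measured pairs with both active marks and no H3K27me3, 534 had both genes expressed (76.5%), 141 had 1 and 23 had neither, with median FPKM of 17.8 for the higher gene and 5.07 for the lower. A further 96 regions had H3K4me3 alone in both replicates, of which 86 had H3K27ac in replicate 1 and none in replicate 2. In 91 of these with values, 40 pairs had both genes expressed and the medians were 8.70 and 0.770. None of the 21 pairs with H3K27me3, and none of the 35 measured pairs with no mark in both replicates, had both genes expressed.

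Pairs known from textbooks showed the range. A list of 20 well-known divergent pairs, drawn up with earlier results known, held 9 that met the rule, while in the other 11 the annotated 5′ ends overlapped. PPAT and PAICS, which encode successive enzymes of purine synthesis, had FPKM of 18.1 and 18.3 for PPAT and 33.3 and 36.8 for PAICS in libraries 1 and 2. PAICS was thus higher in both libraries. SARS2, the mitochondrial seryl-tRNA synthetase, stood at 13.6 and 12.1, and MRPS12, a protein of the mitochondrial ribosome, at 32.0 and 30.6. TMEM258, a subunit of the oligosaccharyltransferase complex, stood at 43.9 and 40.7, close to FEN1, the flap endonuclease of DNA replication, at 36.3 and 33.2. All of these regions had H3K4me3 and H3K27ac in both replicates.

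Other textbook pairs were uneven. SIRT3, a mitochondrial deacetylase, had 3.94 and 4.82 FPKM, while PSMD13, a proteasome subunit, had 30.6 and 33.0 from a start 35 bp away. PDCD10, the gene of a cerebral cavernous malformation protein, had 21.8 in both libraries, and SERPINI1, the serpin neuroserpin, had 1.299 and 1.33. NPAT, a coactivator of histone genes, had 2.05 and 2.38, and ATM, the kinase of the DNA damage response, had 3.20 and 4.75. In each of these pairs the gene that was higher stayed higher in both libraries. THBS3 and MTX1, which the study takes up, did not meet the rule, since their annotated starts overlapped by 356 bp, and had FPKM of 18.0 and 17.8 and of 12.6 and 13.2.

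The type IV collagen pairs, which encode chains of the basement membrane and are altered in Alport syndrome, differed from all of these. COL4A4 was at 0 and 0.00549 FPKM and COL4A3 was at 0 in both libraries. Their region had H3K4me3 over 1225 and 1229 bp and H3K27me3 over 2172 and 1878 bp of 2172 bp in replicates 1 and 2, and no H3K27ac. COL4A6 was at 0 and 0.00370 and COL4A5 at 1.67 and 1.33, with H3K4me3 over 743 and 549 bp and with H3K27me3 in replicate 1 only. Thus 1 of the 4 member collagens was expressed, beside 17 of the 40 measured collagens outside pairs. COL4A1 and COL4A2, whose 5′ ends overlap and which fall outside the rule, stood at 329 and 337 and at 383 and 375.

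The 5 pairs with the highest lower gene had at least 42.4 FPKM for both genes in each library. PRKDC, the catalytic subunit of DNA-dependent protein kinase, had 64.2 and 74.2 FPKM and MCM4, a helicase subunit of replication, 84.7 and 87.6, with starts 7 bp apart. TCP1, a subunit of the chaperonin CCT, had 109.6 and 112, and MRPL18, of the mitochondrial ribosome, 61.5 and 59.4. Both of these regions were covered by H3K4me3 over at least 1861 bp in each replicate. CENPB, a centromere protein, had 61.4 and 55.4, beside CDC25B, a cell cycle phosphatase, with 42.4 and 50.9. SLBP, which binds histone mRNA, had 82.8 and 82.6, beside TACC3, a spindle protein, with 46.6 and 46.7. RPS16, a ribosomal protein, had 718 and 726, beside the elongation factor SUPT5H with 47.7 and 43.7. In CDC25B, TACC3 and SUPT5H the transcript with the most FPKM started 9659, 8661 and 9488 bp from the 5′-most TSS, so the gap shown by the annotation was not where this transcript began.

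Ribosomal protein genes stood in 3 of the 5 pairs with the largest differences. RPL36A had 399 and 398 FPKM, and BTK, a kinase of B cells, had 0.0184 and 0.0561, with starts 28 bp apart and both active marks. RPL12 had 1644 and 1511 and LRSAM1, a ubiquitin ligase, 8.03 and 8.30. RPL9 had 949 and 878 and LIAS, which makes lipoic acid, 6.08 and 5.64. In these 3 pairs the ribosomal gene was the higher by far, and ribosomal protein genes have processed copies elsewhere in the genome, so their FPKM is uncertain where reads were shared. ACLY, the enzyme that makes cytosolic acetyl-CoA, had 129 and 125, and its partner ODAD4, of ciliary dynein docking, 0.228 and 0.178. The transcript with the most FPKM started far from the 5′-most TSS in BTK (32435 bp, from a total near 0), LRSAM1 (36131 bp) and ACLY (11523 bp). Among these pairs RPL9/LIAS alone had this transcript start near the gap in both genes, at 9 and 105 bp. The FPKM values given are sums over all transcripts of a gene.

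The transcript with the most FPKM of a gene, called dominant here, did not always begin at the 5′-most TSS. Of 1316 expressed members whose dominant transcript could be matched, it started within 1 kb of the 5′-most TSS in 79.6% and beyond it in 269, with a median of 26 bp. For other expressed genes 76.9% lay within 1 kb. Among regions with no H3K4me3 peak in either replicate, some of the highest FPKM belonged to UHRF1, a reader of DNA methylation (57.7 and 54.6), to CTNND1, a catenin (25.3 and 23.6), to RAD51D, of homologous recombination (7.79 and 8.34), and to ANGEL1 (6.07 and 5.29). None of these 4 regions had a peak in any list. Their dominant transcripts started 1662 to 13364 bp from the scored TSS. With pairs limited to the 490 whose dominant transcripts both started within 1 kb, a choice made after seeing the data, 87.8% had both active marks, 1.22% had H3K27me3 and 72.7% had both genes expressed.

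Pairs with only 1 gene expressed showed how the marks lay when transcription was one-sided. Of these 204 pairs, 190 had H3K4me3 in both replicates and 142 had both active marks. Peaks reached farther into the expressed gene. Over 3 kb downstream of each start, H3K4me3 in replicate 1 covered a median of 1292 bp on the expressed side and 797 bp on the other, and in replicate 2 857 and 481 bp. The expressed side was the wider in 154 pairs and the narrower in 41 in replicate 1, and in 153 and 45 in replicate 2. For H3K27ac the medians were 928 and 570 bp in replicate 1, and 427 and 0 bp in replicate 2, with the expressed side wider in 140 and 118 pairs and narrower in 44 and 30. In the 574 pairs with both genes expressed, the side of the higher gene was wider less clearly, in 328 against 241 pairs for H3K4me3 in replicate 1 and 327 against 247 in replicate 2.

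**Figure D5:**
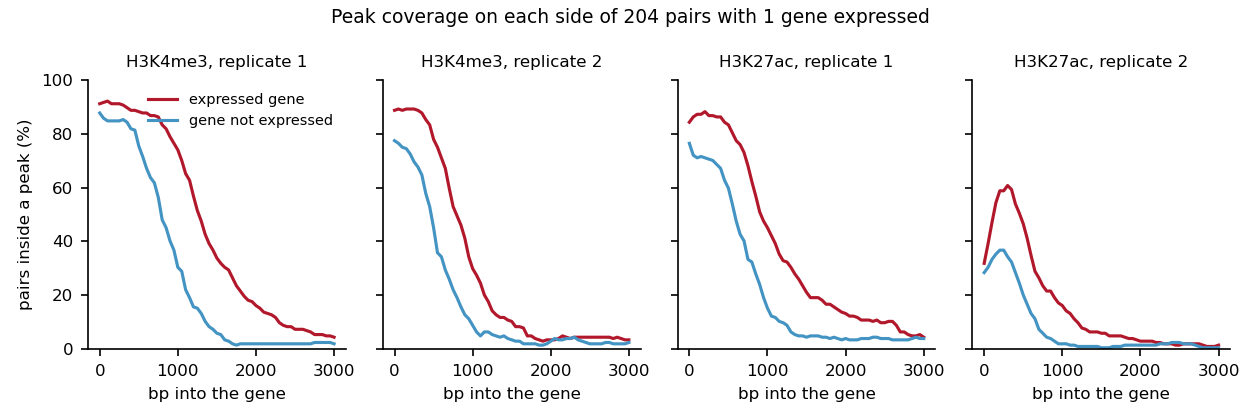
Share of the 204 pairs with 1 gene expressed that lie inside a peak at each distance into the gene (bp from its 5′-most TSS), for the expressed gene and the gene not expressed, by mark and replicate. The line of the expressed gene lies above that of its partner over the first 1000 bp in all 4 panels.

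Member genes that were not expressed often carried active marks. Of 199 such genes with an expressed partner, 93.0% had H3K4me3 within 1 kb of their own TSS in both replicates, 69.3% had both active marks (interval 62.6 to 75.3%) and 3.02% had H3K27me3. Of 123 with no expressed partner, 56.1% had H3K4me3, 30.1% both active marks and 24.4% H3K27me3. Among 7727 genes outside the pairs that were not expressed, the shares were 25.2%, 6.56% and 19.3%. Median FPKM in these sets was 0.206 with an expressed partner, 0.0311 without and 0.0053 outside the pairs. The sets below the cutoff thus differed in level, with the members higher. A window around one TSS of a pair also takes in the other, so the mark of the partner is counted here. Expressed members had both active marks in 89.1%, against 71.6% of other expressed genes.

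Few pairs carried H3K27me3, and most of their genes were near 0 FPKM. The widest coverage was found at SAMD3/TMEM200A, at the histone pair H2AC25/H2BC26, at OSTM1/NR2E1, at PTH2/GFY and at FOXL2/FOXL2NB. NR2E1 (a nuclear receptor of neural stem cells) was at 0 in both libraries, with H3K27me3 over the whole 2169 bp in both replicates, and FOXL2, a forkhead factor of the ovary, was at 0.268 and 0.334. PTH2, a neuropeptide, and GFY, SAMD3 and TMEM200A were at 0 as well. The highest levels beside H3K27me3 belonged to PPIE, a cyclophilin of the spliceosome (24.5 and 25.9), to BLVRB, a biliverdin reductase (13.3 and 13.7), to IFT122, of intraflagellar transport (10.2 and 11.0), to OSTM1 (8.86 and 9.87) and to ZFYVE28 (3.95 and 4.58). Of these 5, only BLVRB had its dominant transcript near the scored TSS, at 19 bp, and its region alone had H3K27ac in both replicates. The others started 10617 to 91113 bp away. The share with H3K27me3 was 0.694% (1 of 144) at distances of up to 50 bp and 6.31% (7 of 111) beyond 400 bp. In the bins between, in order of distance, it was 1.51%, 2.37% and 2.27%. The scored region is longer where the gap is longer, which leaves more room for a peak to overlap it.

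Functional lists, also drawn up with earlier results known, were represented unevenly, beside the 8.47% of all coding genes that are members. Most listed genes were expressed inside and outside pairs alike, so the counts of expressed members are read beside those of the rest of each list. DNA replication and repair had 41 of 134 genes (30.6%), and all 41 were expressed, beside 92 of 93 outside pairs. Both active marks lay within 1 kb of the own TSS of 34 of the 41, and of 82.4% of all 1703 members. PCNA, the sliding clamp, led with 277 and 287 FPKM, and XRCC6, the Ku70 protein of end joining, had 254 and 239.8. MCM2, of the replicative helicase, had 97.0 and 88.9. At the low end LIG4, the ligase of end joining, had 1.34 and 1.77. The median over these members was 11.7, and that of the 93 listed genes outside pairs was 12.8.

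Genes of oxidative phosphorylation, the mitochondrial ribosome and mitochondrial import were frequent members. Oxidative phosphorylation had 25 of 101 genes (24.8%), all expressed, beside 68 of 76 outside pairs, with a median FPKM of 37.4 against 36.0. UQCRH, of complex III, had 177 and 181, beside LRRC41 at 25.2 and 24.3, and NDUFAF7, an assembly factor of complex I, had 4.80 and 5.16. The mitochondrial ribosome had 17 of 78 (21.8%), all expressed, as were all 61 outside pairs. All 17 lay at regions with both active marks, which 82.9% of all 883 regions had. The median of the 17 was 18.7 against 24.98 outside pairs, and they ranged from MRPL18 down to MRPL50 at 4.58 and 4.11. In MRPL46/MRPS11 both genes encode mitochondrial ribosomal proteins, with 9.20 and 11.0 and with 11.3 and 11.5. In MRPL36/NDUFS6 and MRPL47/NDUFB5 a ribosomal protein faces a complex I subunit, and in TIMM8B/SDHD an import factor (5.56 and 4.88) faces a subunit of complex II (33.3 and 24.998). Mitochondrial import had 8 of 37 (21.6%), all expressed, beside 28 of 29 outside pairs, with a median of 10.8 against 26.4. In this list TOMM70, an import receptor of the outer membrane, was highest (30.9 and 31.8, facing LNP1) and MTX3 lowest (2.79 and 3.23, facing THBS4). The tRNA synthetases had 3 of 37 (8.11%), near the 8.47% of all coding genes. All 3 were expressed, as were the 34 outside pairs, with a median of 12.9 against 26.0. They ranged from RARS2 with 29.5 and 31.2 to FARS2 with 5.33 and 5.10, which faces LYRM4.

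The proteasome had 6 of 40 genes (15.0%), all expressed, beside 32 of 34 outside pairs, with a median of 50.6 against 45.2, from PSMA7 at 272 and 257 to PSMD10 at 21.4 and 23.4. Cilium and cystic kidney genes had 12 of 72 (16.7%), all expressed, beside 57 of 58 outside pairs, with a median of 5.996 against 6.77, led by IFT20 (13.3 and 14.8) and ending with CEP290 (2.09 and 2.28), a gene of nephronophthisis and related ciliopathies. Zinc finger genes had 36 of 559 (6.44%), with 29 expressed, beside 398 of 523 outside pairs, and a median of 3.88 against 2.64. They ranged from ZNF207, which faces C17orf75, at 53.7 and 55.4, to ZNF182, which faces SPACA5, at 0.444 and 0.527. Antigen presentation and interferon genes had 4 of 42 (9.52%), near the 8.47% of all coding genes. All 4 were expressed, beside 31 of 38 outside pairs, with a median of 11.0 against 9.02. B2M, the light chain of MHC class I, differed between libraries (107 and 33.0). ISG15 had 17.9 and 16.0, IFIT5 had 4.55 and 5.43, and IFIH1, a sensor of viral RNA, had 1.54 and 2.05. Collagens had 4 of 44 (9.09%), near the 8.47% of all coding genes. Of these 4, 1 was expressed, beside 17 of 40 outside pairs, with a median of 0.0023 against 0.446.

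Histone genes stood apart from the other lists. Replication-dependent histone genes, which are known to lie in clusters of divergent pairs and to make mRNAs without a poly(A) tail, had 23 of 66 members (34.8%). Regions of 19 of the 23 had both active marks, beside 82.9% of all 883 regions. Yet 2 of the 23 were expressed by the FPKM rule: H2BC12 (20.1 and 19.3) and H2AC6 (1.65 and 1.77). The median over the 23 was 0.233 FPKM, and of the 40 measured histone genes outside the pairs 4 were expressed. H2AC1/H2BC1, a testis pair, had no peak in any list and was at 0. These genes are near-identical copies, so reads may have been split between them, and the labels describe the RNA both as total RNA and as mRNA, while the study's methods name depletion of ribosomal RNA. The part of either in these values was not tested.

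The label of the cells was checked by markers. Of 9 proximal tubule genes, PAX8 (100.2 and 104 FPKM), GGT1 (64.1 and 58.1) and SLC5A2 (1.56 and 2.36) were expressed, while LRP2 and SLC22A6 were at 0 in both libraries and CUBN, SLC34A1, AQP1 and ANPEP were below 1. Of 5 genes of simple epithelium 4 were expressed, with KRT8 at 179 and 184, and CDH1 was at 0.210 and 0.283. Markers of podocytes, leukocytes, endothelium (CDH5 alone) and distal nephron were below 0.1 FPKM on average. Of 2 fibroblast genes 1 was expressed: COL1A1, a collagen, was at 40.3 and 39.9, and PDGFRB was at 0.933 and 0.693. The cells thus had epithelial keratins but lacked several defining transcripts of the proximal tubule.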

How the data were processed

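ChIP-seq peaks of H3K4me3, H3K27ac and H3K27me3 (2 replicates each) and RNA-seq (2 libraries) of HK2 cells were analysed; input DNA and HiChIP samples were not used here. Per the study's methods and the labels, the authors used Bowtie2 to align ChIP-seq reads (hg19) and MACS2 to call peaks replicate by replicate. The deposited lists give limits without height or significance, so the depth behind a peak is unknown. The study's supplement gives a lower fraction of reads inside peaks in replicate 2 than in replicate 1 for H3K27ac and for H3K4me3. For RNA-seq, HISAT2 was the aligner and the authors deposited StringTie 1.3.3 output with FPKM and TPM of each transcript. The methods name hg19, while the file headers name GENCODE version 27, so genes were joined by Ensembl identifier and no coordinate of the RNA-seq files was used.

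Start sites were read from GENCODE version 44 lifted to GRCh37, and sequences from that genome. A mark was present where a peak overlapped a region by at least 1 bp. Other promoters were scored within 1 kb of the 5′-most TSS. Transcript FPKM was summed by gene, and log values used a pseudocount of 1, which compresses differences among low genes. With 1 condition there was no test across samples; shares carry 95% Wilson intervals, which cover counting error only and treat promoters as independent. Python 3.11.15, numpy 2.4.6, pandas 2.3.3, scipy 1.17.1 and matplotlib 3.10.9 were used, and the functions that find pairs, covered bases and spanning peaks were tested on simulated data.

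Pairs named in the text were the textbook pairs, the 5 with the highest lower gene, the 5 with the largest difference within the pair, the 5 with H3K27me3 and the highest FPKM and the 5 with the widest H3K27me3, the 5 of highest FPKM without H3K4me3, and the pairs of the highest and lowest gene of each list. A pair that these rules named is not reported here. Other members named beside a list were picked with their values in view. The members and lists were chosen with earlier results of these data known. Alternatives covered distance, readthrough genes, replicates, overlap, window, FPKM threshold, pseudocount, TPM and the comparison genes.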

Additional observations from a re-analysis of the deposited data

How the results depend on the processing

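Among 56 alternatives to the 5 results that compare groups no sign turned, although the difference in Spearman coefficient came down to about 0 with 1 of them. Of all 63 alternatives to 6 results, 23 moved a value by less than the SD between replicates. No paired analysis was possible because no result came from a test between groups and the samples of a number are different assays. Sets of pairs of 4 kinds (overlapping 5′ ends added, dominant transcripts of both genes within 1 kb, 1 pair per promoter, same-strand neighbours within 10 kb) were chosen after seeing the data.

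The share with both active marks was 39.7 percentage points above other promoters. It was 37.1 with a peak in either replicate, 36.1 with at least 500 bp covered, 42.0 with overlapping 5′ ends added, 44.6 with dominant starts near, and 37.5 to 39.6 with 1 ChIP-seq replicate. The difference for H3K27me3 was -7.16 points, and -10.5, -5.83 and -8.31 with a peak in either replicate, with 500 bp covered and with dominant starts near, and -9.54 to -8.09 with 1 replicate. Both start sites lay in 1 H3K4me3 peak in 79.5% to 90.0% of regions with 1 replicate.

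The median log10(FPKM + 1) of members was 0.394 above that of other genes. This difference shrank to 0.0771 with a mean FPKM of at least 0.1 and to 0.0357 among genes with H3K4me3. The first filter leaves out genes near 0 by its construction. The second selects on the mark, and outside the pairs it kept 25.2% of genes not expressed and 87.9% of those expressed. The difference was 0.397 at distances of up to 500 bp, 0.385 without readthrough genes, 0.442 in TPM, 0.466 with a pseudocount of 0.1, 0.456 with overlapping 5′ ends, 0.418 with dominant starts near, 0.408 with 1 pair per promoter, and 0.394 to 0.395 with 1 library.

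Both genes were expressed 29.1 points more often than in same-strand neighbours. In the same order of settings as far as TPM this was 29.9, 32.0 and 30.2, then 31.5 with overlapping 5′ ends, 33.9 with dominant starts near, 30.6 with 1 pair per promoter, 32.3 against neighbours within 10 kb, 29.9 at a threshold of 0.1 FPKM, 17.8 at 5 FPKM, and 29.3 to 29.5 with 1 library. The Spearman coefficient was lower than that of same-strand neighbours by a difference of -0.16. It was -0.16 without readthrough genes, -0.18 with overlapping 5′ ends, -0.14 with dominant starts near, -0.33 against neighbours within 10 kb, -0.12 in active pairs, -0.074 with Pearson's r, -0.16 to -0.15 with 1 library, and -0.00077 with a mean FPKM of at least 0.1.

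Peaks without heights do not show how much mark a promoter carried, and the H3K27ac lists differed in width. Start sites were those of the annotation and were not measured.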
